A study of Mus musculus with 6 samples.

Results

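The genes described here are 37 mouse genes of cholesterol and fatty acid synthesis and its regulation, most of them known targets or regulators of the sterol regulatory element-binding proteins (SREBPs). They were chosen by gene symbol under a rule that uses no measured value, though with earlier results of these data known, and all 37 were found among the 24411 genes of the deposited count table. The list holds 18 genes of sterol synthesis, 12 of fatty acid synthesis or desaturation and 7 of sterol uptake, carriage or regulation. RNA sequencing compared cultures given mouse αSyn PFF with cultures given phosphate-buffered saline (PBS). PFF are preformed fibrils of α-synuclein, used to seed aggregation of the protein in neurons.

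Both groups were primary cultures from the cortex of mouse embryos at day 18, seeded in medium with 10% fetal bovine serum and then kept in a neuron culture medium renewed every 3 days. Fibrils at 3.45 µM, or PBS in the other group, were added on day 10 in vitro, and cells were harvested for RNA after 8 days, on day 18. There were 3 libraries per group, called PBS 1 to 3 and PFF 1 to 3 below. The sources used here give neither strain nor sex of the mice, nor whether each library had its own culture or animal. The p-values may therefore measure only a technical spread between these samples.

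SREBPs are transcription factors held in the membrane of the endoplasmic reticulum by the escort protein SCAP and the INSIG proteins while sterol is plentiful. When sterol falls, SCAP carries them to the Golgi, where proteases release the part that enters the nucleus and raises transcription of genes for sterol and fatty acid synthesis. SREBP2, from Srebf2, acts mainly on the sterol genes and SREBP1, from Srebf1, mainly on the fatty acid genes. The brain makes its own cholesterol, since lipoproteins of the blood do not cross into it, and astrocytes and oligodendrocytes are large producers.

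SREBPs bind weakly alone and are known to act beside the CCAAT-binding factor NF-Y, so the upstream sequences of the members were searched for both kinds of site. RefSeq promoter windows on GRCm38.p6 were matched by symbol for 30 of the 37 genes, and the 250 bases before each start site were read. The motifs were the sterol element TCACNCCAC, the E-box CACGTG, which SREBP1 can also bind, and the NF-Y box CCAAT, each on both strands and no 2 different motifs overlapped in the windows printed below. CCAAT was found for 24 of the 30 members (80%), against 37.5% of all 27025 genes with such a window, 40.5% of the 10558 genes tested below and 52.3% of the 266 tested genes that fell. It was found for 14 of 15 sterol synthesis genes, 5 of 9 fatty acid genes and 5 of 6 genes of the third group. These counts include Acacb, Me1, Dhcr7 and Tm7sf2, whose CCAAT matches lay only in windows wholly inside the annotated gene. Such matches are not upstream of the first annotated start of the gene, and the same holds for the E-box counted for Dhcr7. The E-box was found for 6 of 30 members (20%), against 9.77% of genes tested. The sterol element in these exact letters was found for 1 of 30 members, Hmgcs1, against 1.22% of all genes. Genes with several start sites were counted once if any window held the motif. Members without an entry were Fdps, Fdft1, Sqle, Scd1, Scd2, Fads1 and Stard4.

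Upstream sequences are printed for the 4 members that changed after PFF, hold CCAAT and have no annotated exon of any gene in the window, a choice that beyond Hmgcs1 was made after the values were seen. Hmgcs1, Mvd and Fasn fell and Mylip rose, so both directions are shown. They lie at chr13:119690101-119690350 (+ strand) for Hmgcs1, chr8:122443423-122443672 (− strand) for Mvd, chr11:120824548-120824797 (− strand) for Fasn and chr13:45389492-45389741 (+ strand) for Mylip. Capitals mark CCAAT, or ATTGG where it lies on the other strand, and in Hmgcs1 also the sterol element, which begins 137 bases before the start site.
Hmgcs1: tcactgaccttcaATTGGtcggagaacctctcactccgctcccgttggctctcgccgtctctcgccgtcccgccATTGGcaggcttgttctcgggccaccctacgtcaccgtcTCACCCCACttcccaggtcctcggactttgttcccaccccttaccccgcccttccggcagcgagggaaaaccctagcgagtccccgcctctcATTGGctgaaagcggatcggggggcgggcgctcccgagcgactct
Mvd: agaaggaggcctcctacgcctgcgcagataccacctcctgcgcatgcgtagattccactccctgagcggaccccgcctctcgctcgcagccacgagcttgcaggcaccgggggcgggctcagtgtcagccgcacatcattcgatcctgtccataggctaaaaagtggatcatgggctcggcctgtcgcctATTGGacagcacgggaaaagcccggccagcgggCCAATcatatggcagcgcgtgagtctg
Fasn: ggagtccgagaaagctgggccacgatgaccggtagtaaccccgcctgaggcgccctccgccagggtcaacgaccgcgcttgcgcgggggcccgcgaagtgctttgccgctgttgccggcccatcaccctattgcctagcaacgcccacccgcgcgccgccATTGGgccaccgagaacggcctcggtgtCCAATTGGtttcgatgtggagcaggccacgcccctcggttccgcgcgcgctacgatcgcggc
Mylip: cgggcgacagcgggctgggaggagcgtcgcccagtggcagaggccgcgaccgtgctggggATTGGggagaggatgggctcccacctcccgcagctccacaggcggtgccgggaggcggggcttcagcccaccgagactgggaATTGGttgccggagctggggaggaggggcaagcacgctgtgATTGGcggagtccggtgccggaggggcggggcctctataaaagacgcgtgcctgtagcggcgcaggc
CCAAT, by which these 4 were chosen, had 3 matches in Hmgcs1, 2 in Mvd, 3 in Fasn, of which 2 on opposite strands share bases, and 3 in Mylip. Of the 14 falling members with a window 11 held it (78.6%), and Acaca, Acat2 and Fads2 did not. That share was close to the 80% of all 30 members with a window, so among the members CCAAT did not mark those that fell. The one Acaca window, chr11:84195188-84195437, lies inside the gene, which starts at 84129672. Sequence before the first start site of Acaca was therefore not searched. A match is a description of the letters and not evidence of binding.

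Library totals ran from 9224974 to 10742383 estimated counts, and 13919 genes passed the filter on low counts. Levels are given as CPM, counts per 1000000 after TMM scaling of library size. Changes are log2 fold changes of PFF against PBS with their standard error (SE), from edgeR's quasi-likelihood test, two-sided, with p-values adjusted by Benjamini-Hochberg over the 13919 genes. A gene is said to have fallen or risen where its adjusted p was under 0.05. Replicate 3 of both groups stood apart from replicates 1 and 2 on the second principal component, with 18.3% of the variance. The neuron markers summed to 5076 to 5389 CPM in PBS and 5224 to 5738 CPM in PFF, so the labelled cell type was present in every library, next to markers of astrocytes, the oligodendrocyte lineage and microglia.

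All 37 members were tested. After PFF 19 fell and 1 rose, and 17 did not pass the threshold. Of all genes tested, 2.60% fell, 3.98% rose and 6.58% did either. The median log2 fold change was -0.33 over the members and -0.00056 over all genes, and 34 of 37 members had a value below 0, against 50.1% of all genes. In 23 members all 3 PFF libraries lay below all 3 PBS libraries (11.6% of all genes) and in 1 they lay above (13.4% of all genes), against 25.0% of all genes for either. The falls were moderate, from 0.30 (Fdft1) to 0.88 (Scd1) on the log2 scale. With replicates 1 and 2 only, 21 members fell and 1 rose, when 8.38% of all genes fell. Of the 20 members that changed, 13 also passed, the same way, in all 6 fits that leave out 1 library.

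**Figure D1:**
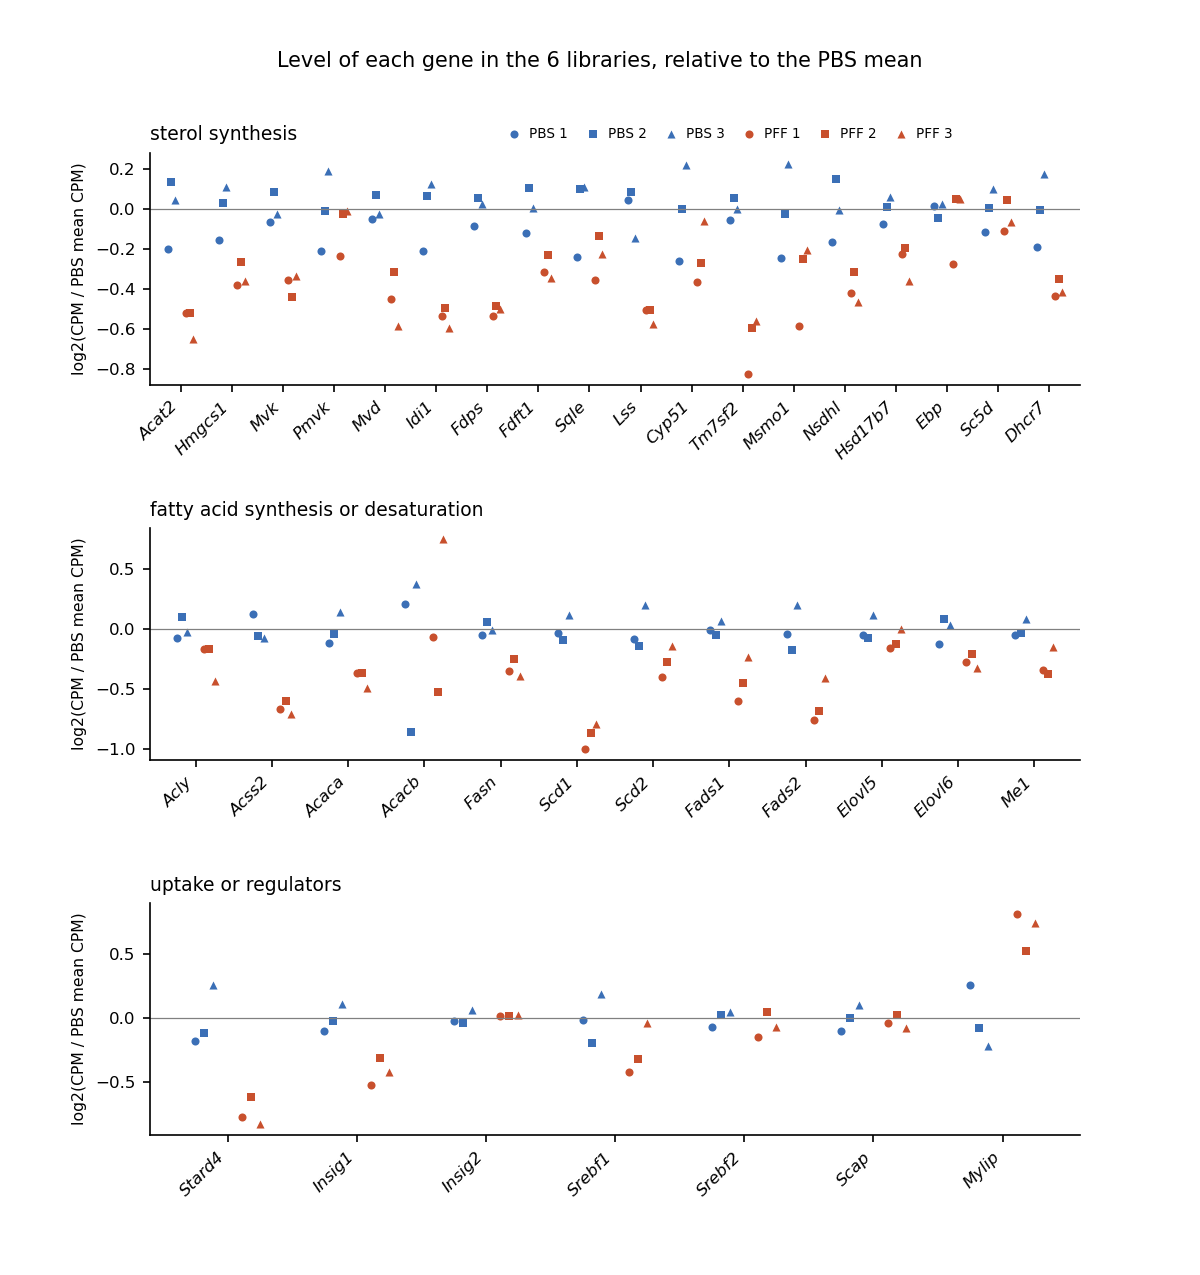
Level of each of the 37 genes in the 6 libraries, as log2 of its CPM over the mean CPM of the PBS libraries (vertical axis); blue points are PBS, red points PFF, and circles, squares and triangles are replicates 1, 2 and 3. The red points lie below all blue points for 23 genes and above them for Mylip alone. They overlap for all the other genes, among them Sqle, Scd2, Insig2, Srebf1, Srebf2 and Scap.

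Of the 5 genes that encode the SREBPs or hold them in place, Insig1 alone passed the threshold, except as given for Srebf1. Srebf2, which encodes SREBP2, was measured at 234, 249.9 and 255 CPM in PBS 1 to 3 and 222, 255 and 234 CPM in PFF 1 to 3. The groups overlapped, and its log2 fold change of -0.06 ± 0.08 did not pass (adjusted p = 0.739, edgeR), with a 95% interval of -0.22 to 0.11. Scap, the sterol-sensing escort, likewise overlapped at -0.03 ± 0.08 (95% interval -0.20 to 0.13). Srebf1, which encodes SREBP1, was measured at 57.3, 50.5 and 65.9 CPM in PBS 1 to 3 and 43.3, 46.3 and 56.3 CPM in PFF 1 to 3. PFF 3 lay within the PBS range while PFF 1 and PFF 2 lay below all PBS libraries, and the change of -0.25 ± 0.11 did not pass (adjusted p = 0.226, edgeR). Without PFF 3 it passed at -0.37 (adjusted p = 0.0308), and with replicates 1 and 2 only at -0.26 (adjusted p = 0.0460).

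Insig1 and Insig2 encode the anchors that keep SCAP in the endoplasmic reticulum, and Insig1 is itself a target of SREBPs. Insig1 was measured at 193, 203 and 223 CPM in PBS 1 to 3 and 144, 166 and 154 CPM in PFF 1 to 3. All PFF libraries were below all PBS libraries, and it fell by 0.42 ± 0.08 on the log2 scale (adjusted p = 0.00729, edgeR, n = 3 per group). Insig2 was measured at 33.9, 33.5 and 35.9 CPM in PBS 1 to 3 and 34.8, 34.9 and 34.9 CPM in PFF 1 to 3, with a change of 0.02 ± 0.08 and a 95% interval of -0.16 to 0.20. The ratio of Insig1 to Insig2 CPM averaged 5.99 ± 0.275 over PBS 1 to 3 and 4.44 ± 0.318 over PFF 1 to 3 (SD), and the groups did not overlap. An exact two-sided permutation test of this ratio gave p = 0.10, the smallest that 3 against 3 libraries allow.

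Among the proteins that move sterol or control its uptake, Stard4 had the second largest fall of the 37 genes and Mylip the only rise. Stard4 encodes a soluble carrier that moves cholesterol between membranes. It was measured at 55.6, 58.0 and 75.1 CPM in PBS 1 to 3 and 36.6, 40.8 and 35.3 CPM in PFF 1 to 3, and it fell by 0.74 ± 0.11 on the log2 scale (adjusted p = 0.00110, edgeR). Mylip encodes a ubiquitin ligase that marks lipoprotein receptors for degradation and is induced by the sterol-activated LXR receptors rather than by SREBPs. It was measured at 14.8, 11.7 and 10.7 CPM in PBS 1 to 3 and 21.9, 17.9 and 20.9 CPM in PFF 1 to 3, a rise of 0.71 ± 0.14 (adjusted p = 0.00628, edgeR). Neither gene's groups overlapped, and both passed whichever library was left out. Of the 7 uptake or regulator genes 2 fell, 1 rose and 4 did not pass, where 2.60% of all genes fell and 3.98% rose. The median of the 7 was -0.06.

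Of the 18 sterol synthesis genes 11 fell, 7 did not pass and none rose in edgeR. Of all genes 2.60% fell and 3.98% rose. DESeq2 and limma-voom also called 11 lower and 0 higher, and at an unadjusted p under 0.05 edgeR had 14 lower and 0 higher, where 10.5% of all genes were lower and 10.6% higher. Their median log2 fold change was -0.36, and all 18 values were below 0. Their summed level was 2688, 3093 and 3198 CPM in PBS 1 to 3 and 2262, 2451 and 2347 CPM in PFF 1 to 3, with no overlap between the groups. Leaving out PBS 2 or PFF 2 brought the falling genes to 6 each, and leaving out PFF 1 to 7, and there were 11 with replicates 1 and 2 only. In bulk RNA, fewer cells of a type and less RNA per cell cannot be told apart, here and in all that follows.

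The first steps build the isoprenoid unit from acetyl-CoA. Acat2, the cytosolic thiolase that joins acetyl-CoA, was measured at 103, 129.8 and 122 CPM in PBS 1 to 3 and 82.6, 82.5 and 75.4 CPM in PFF 1 to 3, and it fell by 0.56 ± 0.09 on the log2 scale (adjusted p = 0.00166, edgeR). Hmgcs1, the HMG-CoA synthase of the cytosol, was measured at 1031, 1173 and 1236 CPM in PBS 1 to 3 and 883, 954 and 893 CPM in PFF 1 to 3. Its PFF libraries all lay below its PBS libraries, with a log2 fold change of -0.33 ± 0.09 (adjusted p = 0.0363, edgeR). The mevalonate that follows from it is phosphorylated and decarboxylated in further steps. Mevalonate kinase (Mvk) fell from 42.5 ± 2.32 to 32.8 ± 1.26 CPM (SD, n = 3 each), and mevalonate diphosphate decarboxylase (Mvd) fell from 69.3 ± 3.04 to 50.9 ± 4.72 CPM. Phosphomevalonate kinase (Pmvk), which acts between them, overlapped between the groups at -0.09 ± 0.11 (adjusted p = 0.689). Idi1, the isomerase that readies isoprenoid units for chain growth, was measured at 168, 204 and 212 CPM in PBS 1 to 3 and 134, 138 and 129 CPM in PFF 1 to 3. Fdps, the farnesyl diphosphate synthase, was measured at 140.4, 154 and 151 CPM in PBS 1 to 3 and 103, 106 and 105 CPM in PFF 1 to 3. Both fell without overlap, Idi1 by 0.54 ± 0.09 and Fdps by 0.51 ± 0.07 on the log2 scale. Hmgcs1 did not pass without PBS 2, PBS 3, PFF 1 or PFF 2 (adjusted p up to 0.123), nor Mvk without PBS 2 or PFF 2 (up to 0.109).

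Squalene synthesis and its cyclisation commit the pathway to sterols. Fdft1, squalene synthase, fell by 0.30 ± 0.08 on the log2 scale, from 197 ± 15.1 to 160.4 ± 6.60 CPM. Sqle, a rate-limiting squalene epoxidase, was measured at 165, 208 and 210.1 CPM in PBS 1 to 3 and 152, 177 and 166 CPM in PFF 1 to 3. PFF 2 and PFF 3 exceeded PBS 1, and the change of -0.24 ± 0.10 did not pass (adjusted p = 0.182, edgeR). Lss, lanosterol synthase, was measured at 121, 124 and 106 CPM in PBS 1 to 3 and 82.8, 82.7 and 78.8 CPM in PFF 1 to 3, and fell by 0.53 ± 0.08. Fdft1 overlaps the cathepsin gene Ctsb on the opposite strand over 18.3% of its exonic bases, and Ctsb rose by 0.96 ± 0.12. Fdft1 did not pass without PBS 2, PBS 3, PFF 1 or PFF 2 (adjusted p up to 0.166), nor with scaling by library size only (0.0651).

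Of the enzymes that turn lanosterol into cholesterol, Tm7sf2, Nsdhl and Dhcr7 fell and the others did not pass. Tm7sf2, a reductase of the sterol ring, had the largest fall of the sterol genes. It was measured at 33.8, 36.5 and 35.1 CPM in PBS 1 to 3 and 19.9, 23.3 and 23.8 CPM in PFF 1 to 3, a change of -0.66 ± 0.10 (adjusted p = 0.000915, edgeR). Nsdhl, a sterol dehydrogenase of demethylation, fell from 64.6 ± 6.92 to 49.0 ± 2.58 CPM, and Dhcr7, a reductase of the last steps, fell from 83.5 ± 10.5 to 63.3 ± 2.03 CPM (SD, n = 3 each). Hsd17b7, the keto reductase of demethylation, had all PFF libraries below all PBS libraries but did not pass, at -0.26 ± 0.08 (adjusted p = 0.0773). Cyp51, the lanosterol demethylase, was measured at 149, 178 and 208 CPM in PBS 1 to 3 and 138, 148 and 171 CPM in PFF 1 to 3. Msmo1, the methyl sterol oxidase, was measured at 162, 189 and 225 CPM in PBS 1 to 3 and 128, 162 and 167 CPM in PFF 1 to 3. In both genes replicate 3 was the highest library of each group, and neither passed (adjusted p = 0.274 and 0.132). The isomerase Ebp and the desaturase Sc5d, which act late in the pathway, gave -0.05 ± 0.14 (95% interval -0.35 to 0.25) and -0.04 ± 0.08 (95% interval -0.22 to 0.13). Nsdhl did not pass without PBS 2, PFF 1 or PFF 2 (adjusted p up to 0.0969), nor Dhcr7 without PBS 2, PBS 3, PFF 1 or PFF 2 (up to 0.0665).

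**Figure D2:**
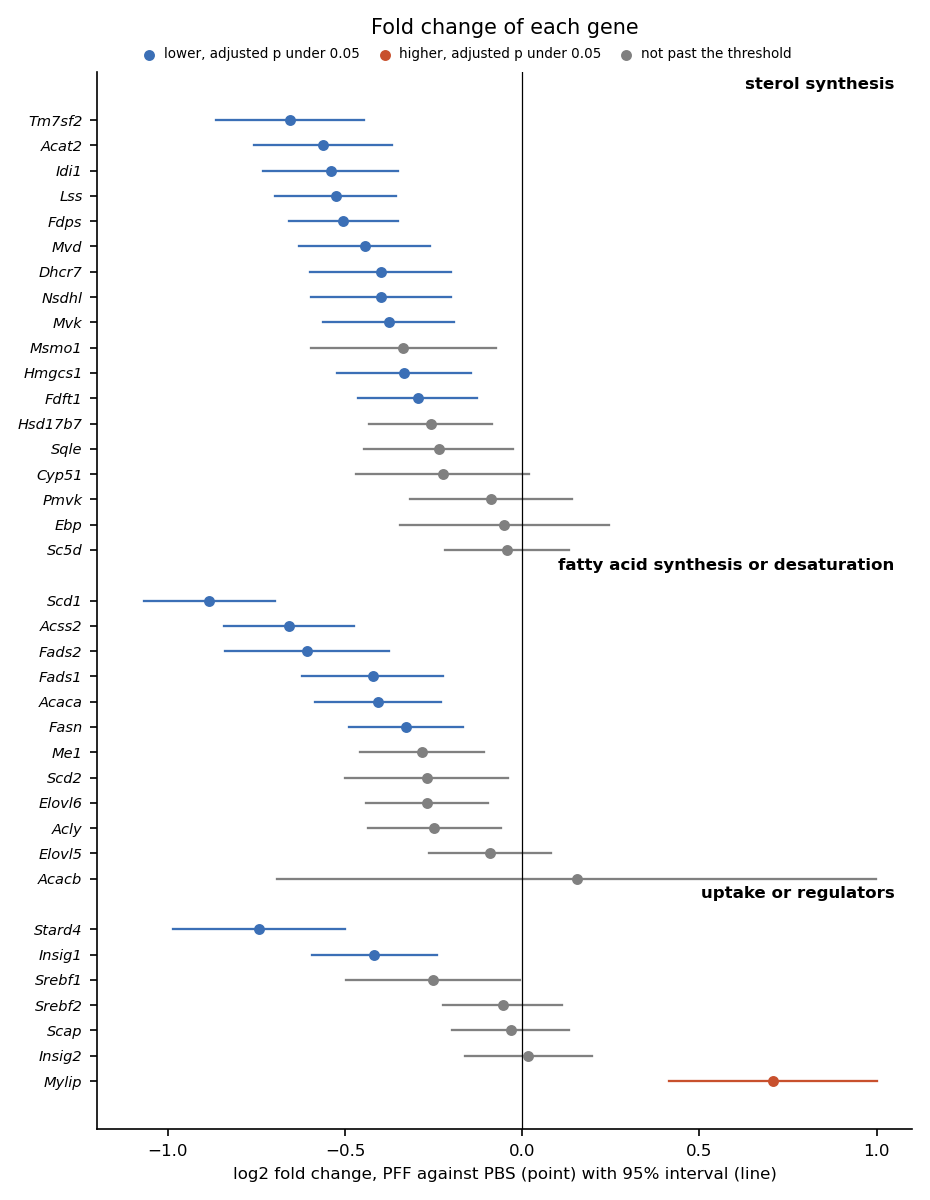
Log2 fold change of PFF against PBS (horizontal axis) for each of the 37 genes, ordered within its group; points are edgeR estimates, lines their 95% intervals without adjustment, and colour gives the call at an adjusted p under 0.05. The largest falls are those of Scd1 (-0.88), Stard4 (-0.74), Acss2 (-0.66) and Tm7sf2 (-0.66), Mylip is the one gene that rose, and Acacb has the widest interval.

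Of the 12 genes of fatty acid synthesis or desaturation 6 fell, 6 did not pass and none rose in edgeR. The shares of all genes were again 2.60% falling and 3.98% rising. DESeq2 called 7 lower and 0 higher, limma-voom 6 and 0, and at an unadjusted p under 0.05 edgeR had 10 lower and 0 higher, against the same 10.5% and 10.6% of all genes. The median was -0.31, and the PFF libraries lay below all PBS libraries in 9 of the 12 (11.6% of all genes). Their summed level was 5105, 4999 and 5909 CPM in PBS 1 to 3 and 3860, 4143 and 4448 CPM in PFF 1 to 3. There were 4 falling genes without PFF 1 and 7 with replicates 1 and 2 only.

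Acetyl-CoA for lipid synthesis comes from citrate through Acly or from acetate through Acss2. Acss2, the cytosolic acetyl-CoA synthetase, was measured at 69.5, 61.1 and 60.6 CPM in PBS 1 to 3 and 40.1, 42.0 and 39.0 CPM in PFF 1 to 3, a fall of 0.66 ± 0.09 on the log2 scale (adjusted p = 0.000314, edgeR). Acly, ATP citrate lyase, also had all PFF libraries below all PBS libraries, but PFF 3 lay apart at 162 CPM from 195.4 and 195.1 CPM in the others. Its change of -0.25 ± 0.09 did not pass (adjusted p = 0.117). Me1, the cytosolic malic enzyme that supplies NADPH, gave -0.28 ± 0.08 without overlap and lay just outside the threshold (adjusted p = 0.0558). It passed with upper-quartile scaling (0.0452), with no low-count filter (0.0313), in DESeq2 (0.0412), without PFF 3 (0.00533) and with replicates 1 and 2 only (0.00206).

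Acetyl-CoA carboxylase commits acetyl-CoA to fatty acids and exists in 2 forms. Acaca, the cytosolic form, was measured at 126, 132 and 150.3 CPM in PBS 1 to 3 and 106, 106 and 96.8 CPM in PFF 1 to 3, and fell by 0.41 ± 0.08 on the log2 scale. Acacb, the form at mitochondria that controls fatty acid oxidation, was low at 1.62, 0.777 and 1.83 CPM in PBS 1 to 3 and 1.35, 0.979 and 2.37 CPM in PFF 1 to 3. Its interval, -0.69 to 1.00, is too wide to show a change of the size seen in Acaca. Fasn, the fatty acid synthase, was measured at 314, 339 and 323 CPM in PBS 1 to 3 and 256, 274 and 248 CPM in PFF 1 to 3. It fell by 0.33 ± 0.07 (adjusted p = 0.0181, edgeR), and did not pass without PBS 2 (adjusted p = 0.0911) or PFF 1 (0.0656). Elovl6, which elongates palmitate, had no overlap between the groups but did not pass (adjusted p = 0.0645), though it did with no low-count filter (0.0454).

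The desaturases held the largest fall of the 37 genes. Scd1, which introduces the first double bond into saturated fatty acids, was measured at 572, 551 and 637 CPM in PBS 1 to 3 and 293, 322 and 339 CPM in PFF 1 to 3. Every PFF library was thus well below every PBS library, and the change of -0.88 ± 0.09 had an adjusted p of 4.64e-05 in edgeR. Its paralog Scd2, the main form of the brain, was measured at 2654, 2546 and 3238 CPM in PBS 1 to 3 and 2127, 2319 and 2551 CPM in PFF 1 to 3. PFF 3 exceeded PBS 2, and the change of -0.27 ± 0.11 did not pass (adjusted p = 0.163), though it did without PFF 3 (0.0404). The ratio of Scd1 to Scd2 CPM was 0.215, 0.216 and 0.197 in PBS 1 to 3 and 0.138, 0.139 and 0.133 in PFF 1 to 3. The groups did not overlap in this ratio, and an exact two-sided permutation test gave p = 0.10, the smallest possible here. The 2 genes are close paralogs on chromosome 19, Scd2 from 44293674 to 44306864 and Scd1 from 44394455 to 44407879 (GENCODE vM21, GRCm38), and reads they share may have been divided between them.

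Fads1 and Fads2 make polyunsaturated fatty acids and are neighbours on chromosome 19. Fads2, the first desaturase of that series, was measured at 301, 274 and 355 CPM in PBS 1 to 3 and 184, 193 and 233 CPM in PFF 1 to 3. Fads1, the second, was measured at 429, 417 and 452 CPM in PBS 1 to 3 and 285, 317 and 367 CPM in PFF 1 to 3. In both the PFF values stood below all PBS values, with PFF 3 the nearest to them, and Fads2 fell by 0.61 ± 0.11 and Fads1 by 0.42 ± 0.09 on the log2 scale. Elovl5, which elongates the polyunsaturated products, overlapped between the groups (-0.09 ± 0.08, adjusted p = 0.555). Fads1 did not pass without PBS 1 (adjusted p = 0.0579), PFF 1 (0.0646) or PFF 2 (0.0849), whereas Scd1, Acss2, Acaca and Fads2 passed with each library left out.

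Levels can be compared between genes only per length. On the scale of CPM per kb of annotated exon, Scd2 stood highest of the 37 at 515 ± 68.1 in PBS, and at 427 ± 38.8 also in PFF (mean ± SD of 3 libraries). It was followed in PBS by Hmgcs1 at 249.5 ± 22.9 and by Scd1 at 119.9 ± 9.18. Fads2 at 94.0 ± 12.5 and Fads1 at 89.9 ± 3.71 came next and did not differ beyond their spread. In PFF the level of Scd1 was 65.0 ± 4.70, within the spread of Fads1 at 67.1 ± 8.60 and near the mean of Fads2, 61.7. Srebf2 was higher than Srebf1, at 34.3 ± 1.49 against 10.3 ± 1.37 in PBS, and Insig1 higher than Insig2, at 66.7 ± 5.01 against 9.91 ± 0.371. The lowest was Acacb at 0.146 ± 0.0579. Lengths count every annotated exon of a gene, so genes with many transcript models, such as Lss and Acss2 with 10787 and 10163 bases, are set low on this scale.

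**Figure D3:**
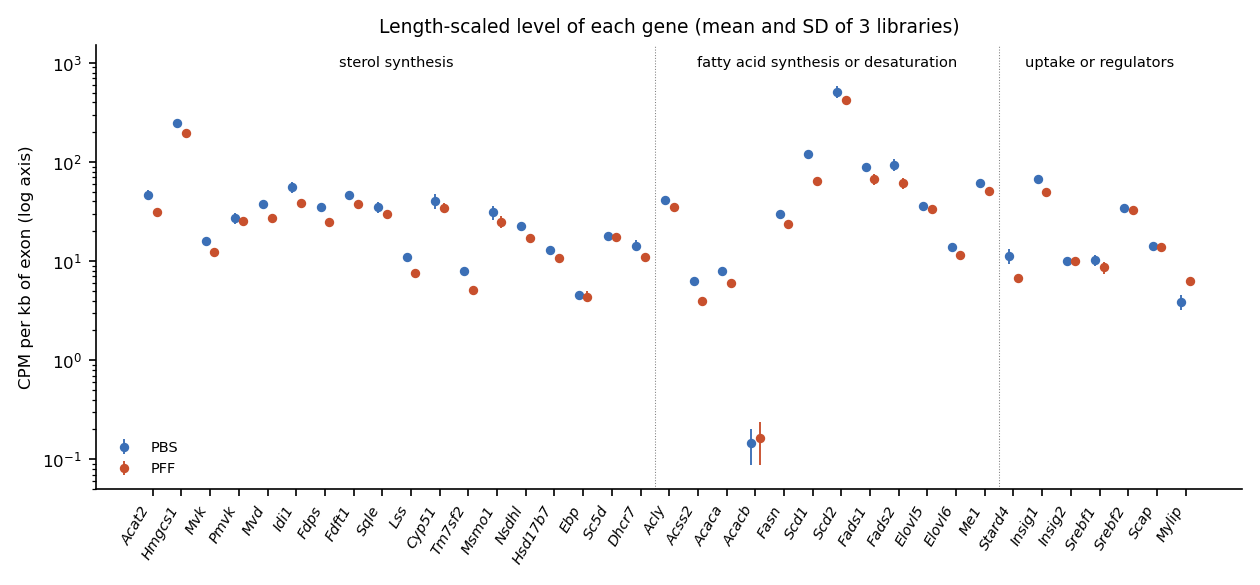
Level of each gene as CPM per kb of annotated exon on a log axis, with points for the mean and bars for the SD of 3 libraries in PBS (blue) and PFF (red). Levels span from Acacb (0.146 in PBS) to Scd2 (515 in PBS), and the fall of Scd1 brings it from 119.9 to 65.0.

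Other genes of lipid metabolism were taken from lists drawn up for the pathway and counted in the same fit. In that fit 2.60% of all genes fell and 3.98% rose. The genes that cleave SREBPs or degrade sterol-regulated proteins (Mbtps1, Mbtps2, the Erlin genes and others) had 0 of 11 lower and 0 higher in edgeR, with a median of 0.06. At an unadjusted p under 0.05 (10.5% of all genes lower, 10.6% higher) this list had 0 lower and 1 higher in edgeR, and 0 in both directions after adjustment in DESeq2 and limma-voom. With replicates 1 and 2 only it had 1 higher. The list of genes that draw isoprenoids off for prenylation, dolichol and ubiquinone also holds Lbr, a sterol reductase gene. This list had 0 of 10 lower and 0 higher in edgeR, in DESeq2 and in limma-voom. At an unadjusted p under 0.05 edgeR had 0 in both directions, and the median was -0.08. Both lists thus lay near the -0.00056 of all genes, beside -0.36 for the sterol synthesis members.

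Further genes of fatty acid handling had 2 of 24 lower and 0 higher, with a median of -0.10. The number lower was 1 without PBS 1 (with 1 higher), PBS 3 or PFF 1, 3 without PBS 2, 0 without PFF 2, 4 without PFF 3, 6 with replicate 3 as a batch term and 5 with replicates 1 and 2 only, where 2 were also higher. The genes that fell were Slc25a1, the mitochondrial citrate carrier that feeds Acly, and Thrsp, a lipogenic regulator. Slc25a1 fell from 100.9 ± 7.70 to 77.4 ± 2.92 CPM (-0.38 ± 0.08, adjusted p = 0.00970, edgeR), and did not pass without PBS 1 (0.0653) or PFF 2 (0.0729). Thrsp fell from 23.4 ± 3.38 to 16.3 ± 1.28 CPM (-0.52 ± 0.12, adjusted p = 0.0206), and did not pass without PBS 3 (0.0697), PFF 1 (0.0788) or PFF 2 (0.0892).

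Genes of sterol removal and lipoprotein handling included none that passed as lower. Among 9 of 11 genes of LXR and sterol efflux that were tested (Ch25h and Cyp27a1 were too low), 0 were lower and 1 was higher, with a median of 0.02, and leaving out PFF 3, or replicate 3 of both groups, gave 1 lower. The one that rose was Cyp46a1, the neuronal cholesterol hydroxylase, from 114.2 ± 4.13 to 140.2 ± 10.2 CPM (0.30 ± 0.08, adjusted p = 0.0348, edgeR). It did not pass without PBS 1, PBS 2, PBS 3 or PFF 2 (adjusted p from 0.0798 to 0.187). The LXR targets Abca1 (0.12 ± 0.10) and Abcg1 (0.15 ± 0.11) overlapped between the groups. Over the 9 tested genes of this list the changes ran from -0.50 to 0.30, and 4 were below 0. Of 11 genes of lipoprotein uptake and endosomal sterol transport, 0 were lower and 2 higher, with a median of 0.11. Lipa, the lysosomal acid lipase, rose from 17.4 ± 4.13 to 40.8 ± 6.40 CPM (1.23 ± 0.15, adjusted p = 0.000272, edgeR) and passed in every alternative. Gramd1b, a carrier of cholesterol from the plasma membrane, rose by 0.32 ± 0.08 (adjusted p = 0.0335). Leaving out any of PBS 1 to 3, PFF 1 or PFF 2 left Gramd1b above the threshold of 0.05 (adjusted p from 0.0788 to 0.154), and without PFF 3 the list had 3 higher.

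**Figure D4:**
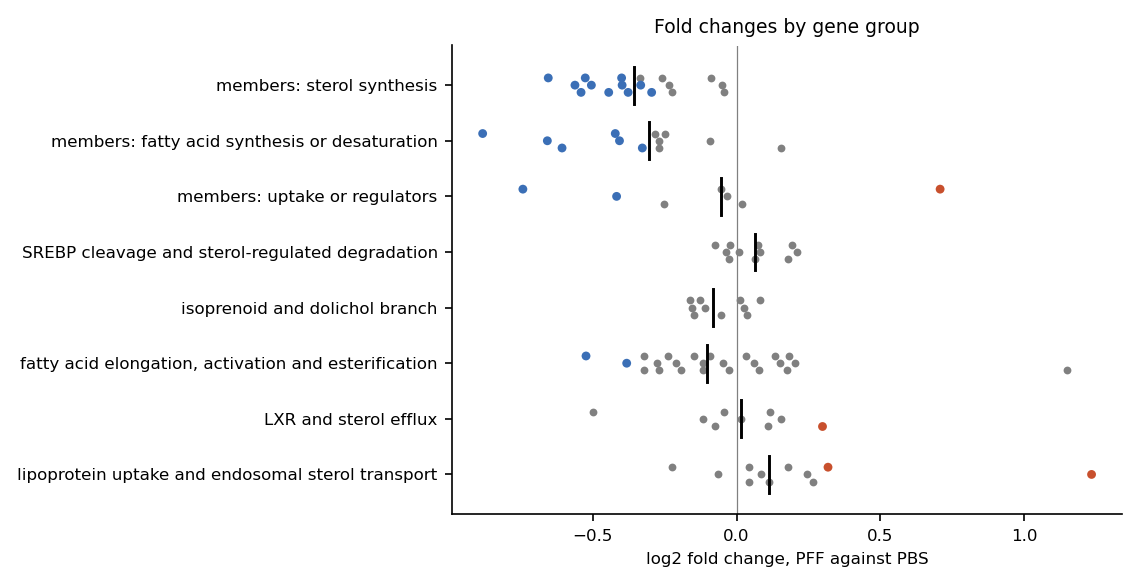
Log2 fold change of every tested gene (points) in the 3 groups of members and in 5 other lists of lipid genes, with blue and red for genes that fell and rose at an adjusted p under 0.05, grey for the others, and a black bar at each list's median. The medians of the sterol and fatty acid synthesis groups are -0.36 and -0.31, and those of the 5 other lists lie between -0.10 and 0.11. The median of the uptake or regulator group, -0.06, lies within that range.

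Markers of several cell types moved in the same libraries, where 2.60% of all genes fell and 3.98% rose. Astrocyte markers had 3 of 11 lower and 0 higher, with a summed level of 4182 to 5500 CPM in PBS and 4004 to 5136 CPM in PFF, so the sums overlapped. Slc1a2, a glutamate transporter, fell by 0.51 ± 0.10, and Aldoc and Aldh1l1 by 0.46 ± 0.09 and 0.42 ± 0.11 on the log2 scale. The count was 1 without PBS 1, 2 without PBS 3 or PFF 1, 0 without PFF 2 and 6 with replicate 3 as a batch term. Oligodendrocyte progenitor markers had 5 of 6 lower and 0 higher, and their sum went from 684 to 795 CPM in PBS to 552 to 588 CPM in PFF. The receptor Pdgfra fell by 0.62 ± 0.07 and the lineage factor Sox10 by 1.01 ± 0.18. The count was 2 without PBS 1 or PFF 2, 3 without PBS 2 and 3 with scaling by library size only. Committed precursor markers had 5 of 6 lower and 0 higher, with sums of 257 to 348 CPM in PBS and 157 to 171 CPM in PFF, and Bcas1 fell by 1.66 ± 0.16. The count was 3 without PFF 2.

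Mature oligodendrocyte markers had 6 of 8 higher and 0 lower, beside 3.98% and 2.60% of all genes. Their sums were 408 to 505 CPM in PBS and 659 to 994 CPM in PFF, and the myelin gene Mbp rose by 1.29 ± 0.15. Without PBS 3, and with replicates 1 and 2 only, 1 was lower. Microglia and macrophage markers had 11 of 12 higher and 0 lower, with sums of 157 to 258 CPM in PBS and 494 to 607 CPM in PFF. Their part in the falls of the lipid genes was not tested. Neuron markers had 1 of 10 higher and 0 lower, and their sums overlapped between the groups. That gene, the synaptic vesicle sensor Syt1, rose by 0.33 ± 0.09 with an adjusted p of 0.0489, and it missed the threshold in 4 other settings (0.0525 to 0.0556) and when PBS 1, PBS 2, PBS 3, PFF 1 or PFF 2 was left out (up to 0.274). Without PFF 3, and with replicates 1 and 2 only, 4 neuron markers were higher, and 3 with replicate 3 as a batch term. In these settings, in that order, 871 of 14070, 1225 of 13953 and 1029 of 13919 genes were higher. Endothelial, mural and fibroblast markers had 0 of 9 lower and 0 higher in edgeR, with 3 lower and 1 higher at an unadjusted p under 0.05 (10.5% and 10.6% of all genes) and 0 calls in DESeq2 and limma-voom. A batch term for replicate 3 gave 1 lower, leaving out PFF 3 gave 4 and using replicates 1 and 2 alone gave 2. Their sums were 49.4 to 60.5 CPM in PBS and 34.4 to 62.5 CPM in PFF, and the defining endothelial gene Cldn5 was at 0 in every library.

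**Figure D5:**
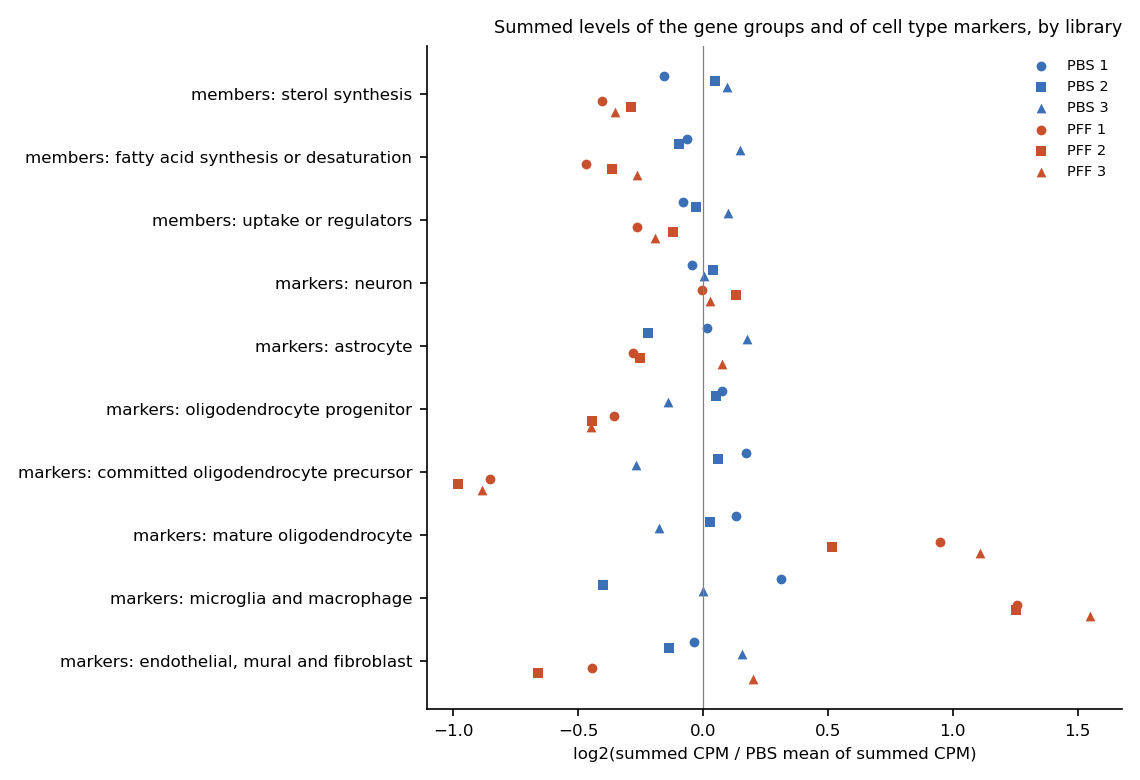
Log2 of the summed CPM of each gene group over its PBS mean (horizontal axis), for the 3 groups of members and 7 lists of cell type markers; blue points are PBS, red points PFF, and circles, squares and triangles are replicates 1, 2 and 3. The 3 groups of members, the oligodendrocyte progenitor markers and the committed precursor markers lie lower in every PFF library than in any PBS library, the mature oligodendrocyte and microglia markers lie higher, and the neuron, astrocyte and endothelial sums overlap. Within the uptake or regulator group Insig1 and Stard4 fell, Mylip rose and 4 of 7 genes did not pass.

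The members also differed between libraries of one group. Replicate 3 was the highest library in both groups for 13 of the 37 genes, against 19.5% of all genes tested. These were 4 of the 18 sterol synthesis genes, 7 of the 12 fatty acid genes (Acacb, Scd1, Scd2, Fads1, Fads2, Elovl5 and Me1) and 2 of the 7 others (Insig2 and Srebf1). Acly, Acaca, Fasn, Acss2 and Elovl6 instead had their lowest PFF value in PFF 3. The summed astrocyte markers were also highest in replicate 3 of both groups, at 5500 CPM in PBS 3 and 5136 CPM in PFF 3, and their part in this pattern was not tested. Between the libraries of replicate 3 alone, Scd1 stood at 637 CPM in PBS 3 and 339 CPM in PFF 3, Fads2 at 355 and 233 CPM and Idi1 at 212 and 129 CPM. With replicate 3 as a batch term 27 members fell, when 7.01% of all genes did, and those that newly passed were Acly, Cyp51, Elovl6, Hsd17b7, Me1, Msmo1, Scd2 and Srebf1 (adjusted p from 0.00360 to 0.0399, edgeR).

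Some values are limited by reads that genes may share. Exonic bases shared with another gene exceeded 10% for 5 members in GENCODE vM21. On the same strand these were Fdps (26.7%, with the gene model Gm43738) and Tm7sf2 (12.1%, with Vps51). On the opposite strand they were Fdft1 (18.3%, with Ctsb), Scap (13.2%, with 5830462I19Rik) and Hmgcs1 (12.1%, with Gm48342). The log2 fold change of Vps51, which did not pass, was 0.14 ± 0.09 beside the fall of 0.66 ± 0.10 in Tm7sf2. The library kit marks strand, but the sources used here do not give the strand setting of the counting.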

How the data were processed

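Total RNA of 6 samples, 3 given PBS and 3 given PFF, was extracted with a column kit and made into strand-marked libraries, per the labels' protocols. The deposited table holds the authors' estimated counts, without scaling, and a fraction in 8.69% of them. The submitters' processing notes name Trim Galore 0.6.6, STAR 2.7.9a, DESeq2 1.38.3 and mm10. For the counting tool, strand setting and annotation: not given in the sources used here.

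Columns were matched to samples by name. Counts were rounded, and genes were kept by edgeR's filterByExpr (13919 of 24411). Library sizes were scaled by TMM. The robust quasi-likelihood test of edgeR 4.0.16 (limma 3.58.1, R 4.3.3) compared the groups without covariates, and p-values were adjusted by Benjamini-Hochberg over all genes. The common dispersion was 0.00642, and library totals of 9224974 to 10742383 set the depth. SE is the size of the log2 fold change divided by the square root of F. The steps were tested on simulated data. Gene positions and exon lengths came from GENCODE vM21 (GRCm38, the assembly of mm10), and promoters from RefSeq (GRCm38.p6).

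The members, the other lists, the tests and the naming rule were chosen with earlier results of these data known. All members are named, and of each other list at most 6 genes with an adjusted p under 0.05, by smallest unadjusted p. Abca1, Abcg1, Ctsb and Vps51 were named after their values were seen. Alternatives were other scalings, low-count filters, tests (DESeq2 1.42.0, limma-voom and non-robust edgeR), a block on the replicate number, replicate 3 as a batch term, replicates 1 and 2 only and leaving out each library. Paired use of the replicate numbers was checked by the correlation of deviations from the group means, given in the closing section.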

Additional observations from a re-analysis of the deposited data

How the results depend on the processing

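No member that passed the threshold changed direction under any of the alternatives run, and 19 members fell and 1 rose with the settings of the report. The number that fell was 13 to 22 with 1 library left out and 18 to 28 under the other alternatives, and 1 rose in all of them. With 1 library left out, 6 to 11 sterol synthesis genes fell, 4 to 8 fatty acid genes and 2 to 3 of the uptake or regulator genes. The replicate block, with the replicate number as a factor, gave 28 members lower, of which 10 were fatty acid genes against 6 with the settings of the report, and replicate 3 as a batch term also gave 10. With that block the further fatty acid genes had 6 lower, the astrocyte markers 5 lower, the neuron markers 4 higher and the endothelial, mural and fibroblast markers 1 lower. Same-numbered libraries correlated in their deviations at 0.0919, 0.109 and 0.202 for replicates 1 to 3. Of the differently numbered pairs, PFF 1 with PBS 2 gave 0.128 and the others ranged from -0.207 to -0.00869. Whether the numbers mark shared preparations was not settled by this, and they were not taken to pair the samples. Of the 628 member values under alternatives, 569 stayed on their side of the threshold with the same sign, 23 no longer passed, 26 newly passed and 10 changed sign, all in members that did not pass. The latter were Sc5d (0.027), Acacb (-0.011) and Scap (0.048) with replicates 1 and 2 only, and 6 members with 1 library left out. Over the 6 such fits Pmvk ranged from -0.18 to 0.017 (above 0 without PBS 3), Sc5d from -0.099 to 0.010 and Scap from -0.084 to 0.019 (both above 0 without PBS 3). Ebp ranged from -0.10 to 0.049 (above 0 without PFF 1), Insig2 from -0.0064 to 0.049 (below 0 without PBS 2) and Acacb from -0.27 to 0.40 (below 0 without PBS 2 or PFF 3). Of all genes 362 fell with the settings of the report, against 954 with the replicate block, 976 with replicate 3 as a batch term and 1169 with replicates 1 and 2 only. Leaving out PBS 1 gave 157, PBS 2 234, PFF 1 197, PFF 2 100 and PFF 3 987. The cause was not tested. With 3 libraries a group, intervals such as that of Srebf2 (-0.22 to 0.11) do not exclude changes inside them. Larger changes could also miss the threshold, as Elovl6 did at -0.27 ± 0.08 (adjusted p = 0.0645, edgeR).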
